A study of Mus musculus with 10 samples.

Results

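The genes described here are the Rab GTPases outside the Rab5 family. They were taken by name from the platform annotation: every probe set with exactly 1 gene symbol, the symbol being Rab followed by a digit and then only digits or letters, without Rab5a, Rab5b, Rab5c, their nearest relatives Rab17, Rab21, Rab22a and Rab31, and names of Rab-interacting proteins. The rule took 56 genes with 129 probe sets, of 18193 genes with 34945 such probe sets on the array. Of these, 52 name a Rab GTPase. The other 4 do not and are given apart: Rab3il1, an exchange factor for Rab8, Rab5if, a Rab5-interacting factor, and the antisense transcripts Rab10os and Rab26os. A probe set is a group of short probes, mostly near the 3' end of a transcript. A filter on low values, a log2 value above 4.33 in at least 2 arrays, kept 45 of the 56 genes, 41 of them GTPases, and 12855 genes in all.

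The mice were males of the inbred strain C57BL/6 NHsd, and liver RNA was taken 5 days after an injection into the tail vein. In 4 livers the lipid nanoparticles carried siRNAs against all Rab5 genes (Rab5 siRNA) and in 4 livers a control siRNA, at 1.5 mg/kg each, while 2 livers came from mice given phosphate-buffered saline (PBS). The sample titles call the control a scrambled RNA and the series' design text names luciferase as its target, and no other set of siRNAs against Rab5 was among the groups, so silencing of Rab5 and other effects of these siRNAs cannot be told apart. The titles number the livers without saying whether each is a separate animal, so the p-values reflect sample-to-sample spread that may in part be technical.

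Rab GTPases are molecular switches on membranes. In the GTP-bound form each Rab marks a certain compartment and recruits effectors such as motors and tethers, which move vesicles and prepare their fusion. Exchange factors load Rabs with GTP, GTPase-activating proteins (GAPs) end the active state, and GDP dissociation inhibitors (GDI) carry the prenylated protein between membranes. Rab5 acts on early endosomes. Its neighbours are Rab4 and Rab11, which recycle cargo to the surface, and Rab7, which replaces Rab5 as endosomes mature towards lysosomes. Hepatocytes use this system to take up proteins from blood and to sort proteins to the bile canaliculus.

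With Rab5 siRNA against control siRNA, 5 of the 45 Rab genes tested rose and 2 fell, 7 in all (limma, adjusted p under 0.05 over all 12855 genes). Of all genes tested, 23.3% were called, 13.8% higher and 9.51% lower, against 15.6% of the Rab genes. These shares were not compared by a test. At an unadjusted p under 0.05 there were 11 Rab genes, against 35% of all genes. Rab4a, Rab11a, Rab23, Rab6a and Rab7 rose, and Rab30 and Rab43 fell. The median difference over the 45 genes was 0.11 on the log2 scale, against 0.0026 over all genes. Of the 45 differences 35 lay above 0, against 6492 of the 12855 over all genes. Only Rab30 moved by more than a log2 difference of 1. Leaving out 1 array at a time, between 4 and 8 of the genes were called, the count being 4 without control replicate 1, control replicate 2, Rab5 siRNA replicate 2 or Rab5 siRNA replicate 3. Without the arrays numbered 2 of every group the count was 1, Rab30.

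**Figure D1:**
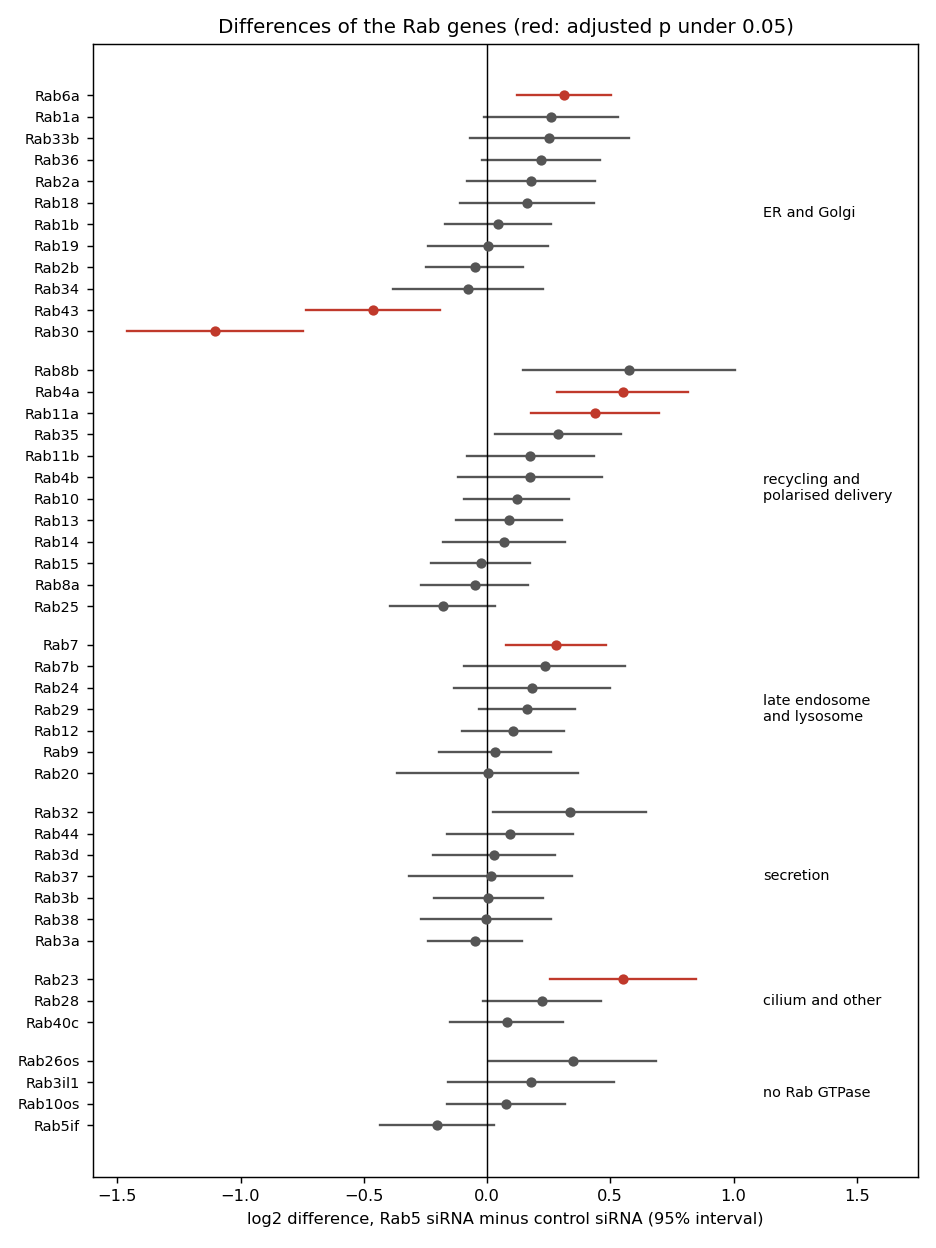
Log2 difference of each of the 45 Rab genes kept by the filter, Rab5 siRNA minus control siRNA, with its 95% interval from limma, sorted within the roles given at the right. The 7 genes drawn in red had an adjusted p under 0.05, and Rab30 lies farthest from 0, at -1.10.

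Some properties of the arrays bear on these values. The targeted genes fell: Rab5a to 28.6% and Rab5c to 25.1% of the control siRNA level (limma, adjusted p = 1.16e-05 and 1.64e-07), while Rab5b, close to the filter value, differed by -0.24 (adjusted p = 0.194). Alb, the defining hepatocyte gene, lay between 14.08 and 14.14 in Rab5 siRNA livers and between 14.03 and 14.08 in control siRNA livers. The mean log2 value of 9 hepatocyte markers, relative to the control siRNA mean, was lower, between -0.10 and -0.07 in Rab5 siRNA livers, against -0.03 to 0.05 in control siRNA livers, with a median difference of -0.12. Of 17 Kupffer cell and macrophage markers 8 rose and 0 fell, among them Marco (1.09, SE 0.342) and Cd68 (1.08, SE 0.113). Among the other marker lists, 1 hepatocyte gene rose and 2 fell of 9, and 1 endothelial gene rose and 4 fell of 11. Of the stellate cell markers 2 of 12 rose, of the cholangiocyte markers 1 of 3, and of the monocyte and neutrophil markers 1 of 6, with 0 falling. Of the lymphocyte markers 1 of 8 fell and of the pancreas and fat markers 1 of 3, with 0 rising. The share called was 47.1% of the macrophage, 45.5% of the endothelial and 33.3% of the hepatocyte markers, against 23.3% of all genes. It was 33.3% for cholangiocyte and for pancreas and fat, 16.7% for stellate cell and for monocyte and neutrophil, and 12.5% for lymphocyte markers. The adjusted p of Marco was 0.0341 with all arrays and between 0.0616 and 0.109 without any 1 of control replicates 1, 3 and 4 or Rab5 siRNA replicates 2, 3 and 4. Relative to the control siRNA mean, the mean log2 value of the 17 markers was 0.04, 0.60, 0.66 and 0.69 in Rab5 siRNA replicates 1 to 4, between -0.21 and 0.11 in control siRNA livers, and -0.17 and -0.04 in PBS livers. Rab5 siRNA replicate 1 also stood apart on the first principal component, at 17.5 against 30.3 to 38.3 for the other Rab5 siRNA arrays. The 3' minus 5' difference of the Gapdh control probe sets was highest in the arrays numbered 2 of each group, at 2.67 with Rab5 siRNA, 2.86 with control siRNA and 2.58 with PBS, against 2.15 to 2.38 in the other arrays. The same difference for the actin control probe sets lay between 2.59 and 2.75 in Rab5 siRNA arrays, between 2.84 and 3.23 in control siRNA arrays and at 2.83 and 3.13 in PBS arrays, so that it was lower in all 4 Rab5 siRNA arrays than in any other. Whole liver was measured, so fewer cells of a type and less RNA per cell cannot be told apart, and the part of the macrophage markers and of RNA quality in the changes below was not tested.

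**Figure D2:**
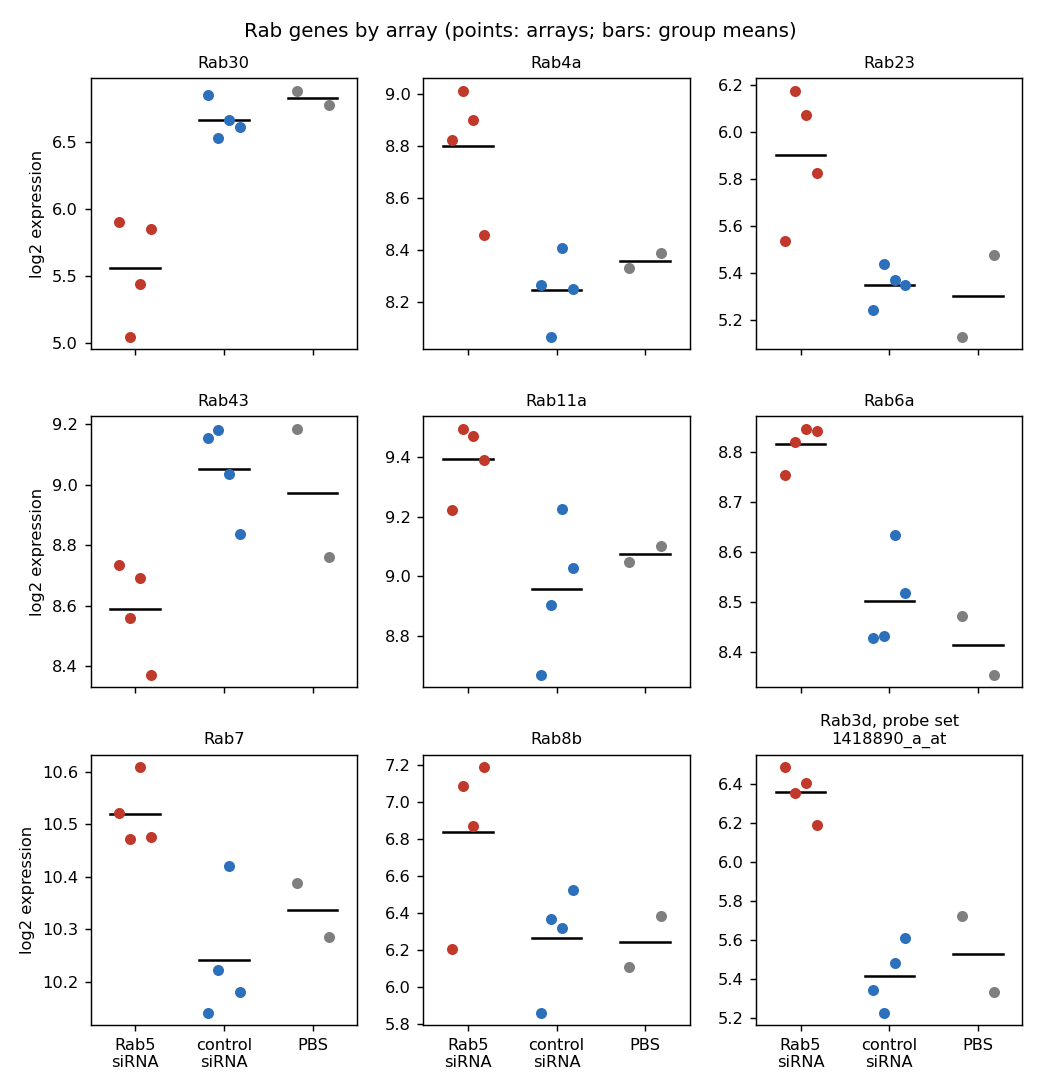
Log2 expression in each array of the 7 called Rab genes, of Rab8b and of 1 probe set of Rab3d. Points are arrays, bars are group means, and each panel has its own scale that does not start at 0. The 4 Rab5 siRNA arrays lie below all others for Rab30, and Rab8b has 1 Rab5 siRNA array, replicate 1, among the control values.

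Of 12 tested Rabs of the endoplasmic reticulum and Golgi, 1 rose and 2 fell, or 25%, which is near the 23.3% of all genes. Rab30, a Rab of the Golgi, had log2 values of 5.90, 5.04, 5.44 and 5.85 in Rab5 siRNA livers, against 6.85, 6.53, 6.66 and 6.61 in control siRNA livers and 6.88 and 6.77 in PBS livers. The groups did not overlap, and the lowest value came from Rab5 siRNA replicate 2. The difference was -1.10 (SE 0.165, adjusted p = 0.000309 by limma), which left 46.5% of the control siRNA level. It passed in all 22 alternative analyses of this gene, with differences between -1.34 and -0.93. Rab30 is represented by 1 kept probe set of the 2 on the array.

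Rab43, which acts in traffic through the Golgi, had values of 8.74, 8.56, 8.69 and 8.37 in Rab5 siRNA livers, against 9.15, 9.18, 9.04 and 8.84 in control siRNA livers and 9.18 and 8.76 in PBS livers. All 4 Rab5 siRNA values lay under the 4 control siRNA values, but 1 PBS value lay nearly as low as the highest Rab5 siRNA value. The difference was -0.46 (SE 0.125, adjusted p = 0.0166 by limma). It did not pass without control replicate 2 (-0.42, adjusted p = 0.0504). Both other kept probe sets of Rab43 were dim, with means of 4.63 and 4.62 over all arrays, and differed by -0.09 and -0.16 without passing.

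Rab6a, which serves transport within the Golgi and back to the endoplasmic reticulum, had values of 8.75, 8.82, 8.85 and 8.84 in Rab5 siRNA livers, against 8.43, 8.43, 8.63 and 8.52 in control siRNA livers and 8.47 and 8.35 in PBS livers. Every Rab5 siRNA value was above every other value, and the 4 differed little among themselves (SD 0.0428, n = 4). The rise was 0.31 (SE 0.0888, adjusted p = 0.0217 by limma). Leaving out control replicate 1 (adjusted p = 0.06), control replicate 2 (0.0585), Rab5 siRNA replicate 2 (0.0586) or Rab5 siRNA replicate 3 (0.0551) ended the call. Centring each array on its median also ended it (0.24, adjusted p = 0.06), as that shifted the median difference of all genes to -0.07.

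The other 9 Rabs of this route did not pass, and their differences lay between -0.08 and 0.26. Rab1a, which starts transport out of the endoplasmic reticulum, averaged 10.30 ± 0.251 in Rab5 siRNA livers and 10.04 ± 0.139 in control siRNA livers (SD, n = 4 each), a difference of 0.26 with a 95% interval from -0.01 to 0.53. Rab2a, which works beside it, differed by 0.18 (-0.08 to 0.44). These intervals leave room for rises of the size seen for Rab6a.

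Among the recycling and polarised delivery Rabs, all 12 taken by the rule were kept, 2 rose and 0 fell. That is 16.7% called, against 23.3% of all genes. Rab4a, which returns receptors from early endosomes to the surface by the fast route, had values of 8.82, 9.01, 8.90 and 8.46 in Rab5 siRNA livers, against 8.27, 8.07, 8.41 and 8.25 in control siRNA livers and 8.33 and 8.39 in PBS livers. Rab5 siRNA replicate 4 lay just above the highest control siRNA value and the other 3 well above it. The rise was 0.55 (SE 0.123, adjusted p = 0.0057 by limma), or 1.46-fold. It passed without any single array, but not without the arrays numbered 2 of every group (0.42, adjusted p = 0.0958). The probe set standing for Rab4a, like those of Rab2a and Rab14, belongs to a design type whose probes can match transcripts of several genes. The other kept probe set of Rab4a, of the specific type, differed by 0.45 (adjusted p = 0.0573 over all probe sets).

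Rab11a, the Rab of the recycling endosome, had values of 9.22, 9.50, 9.47 and 9.39 in Rab5 siRNA livers, against 8.67, 8.90, 9.23 and 9.03 in control siRNA livers and 9.05 and 9.10 in PBS livers. The siRNA groups overlapped slightly, since control replicate 3 lay just above Rab5 siRNA replicate 1. The rise was 0.44 (SE 0.120, adjusted p = 0.0176 by limma). It did not pass without control replicate 1 (0.34, adjusted p = 0.0528), Rab5 siRNA replicate 2 (0.41, adjusted p = 0.0579) or Rab5 siRNA replicate 3 (0.41, adjusted p = 0.0518).

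Rab8b, which delivers vesicles from the Golgi to the surface, is named here after its values were seen. It had values of 6.21, 7.09, 6.87 and 7.19 in Rab5 siRNA livers, against 5.86, 6.37, 6.32 and 6.52 in control siRNA livers and 6.10 and 6.38 in PBS livers. Rab5 siRNA replicate 1 lay among the control values and the other 3 lay above all of them. The macrophage markers split these 4 arrays in the same way, and control replicate 1 was the lowest control siRNA array for both. The pattern was not particular to these markers. Rab5a was also lowest in replicate 1, at 6.28 against 6.91 to 7.16 with Rab5 siRNA and 8.33 against 8.71 to 8.81 with control siRNA. Across all genes, the deviations of the arrays numbered 1 of both siRNA groups from their group means correlated at 0.39. What part the macrophage markers had in the values of Rab8b was not tested. The difference of 0.57 (SE 0.199) did not pass with all arrays (adjusted p = 0.0535 by limma). It passed in 6 of 22 alternatives and not in the other 16. Among the 6 were the replicate number as a block (adjusted p = 0.00247), leaving out Rab5 siRNA replicate 1 (0.79, adjusted p = 0.00194) and leaving out control replicate 4 (0.66, adjusted p = 0.0455).

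The remaining 9 recycling and delivery Rabs did not pass. Rab14, which links the Golgi with endosomes, averaged 10.39 ± 0.195 in Rab5 siRNA livers and 10.32 ± 0.133 in control siRNA livers (SD, n = 4 each), a difference of 0.07 with a 95% interval from -0.18 to 0.32. Rab10, a Rab of surface delivery, differed by 0.12 (-0.09 to 0.33), Rab4b by 0.17 (-0.12 to 0.47) and Rab11b by 0.18 (-0.08 to 0.43). Rab35, a second Rab of fast recycling, named after its values were seen, differed by 0.29 (adjusted p = 0.099). It differed by 0.39 (adjusted p = 0.0199) without Rab5 siRNA replicate 4 and passed in no other of its 22 alternatives.

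Of the 7 late endosome and lysosome Rabs tested, 1 rose and 0 fell, or 14.3%, against 23.3% of all genes called. Rab7, which follows Rab5 on maturing endosomes and directs their fusion with lysosomes, had values of 10.52, 10.47, 10.61 and 10.48 in Rab5 siRNA livers, against 10.14, 10.22, 10.42 and 10.18 in control siRNA livers and 10.39 and 10.29 in PBS livers. Every Rab5 siRNA value was above every other value, with control replicate 3 and a PBS liver close below. The rise of 0.28 (SE 0.0937) lay at the edge of the threshold (adjusted p = 0.0469 by limma). Control replicate 3 was the only array of the 10 whose absence left the call, and without any other array the adjusted p lay between 0.0582 and 0.121. The dimmer probe set of Rab7 had 7.51, 7.52, 7.56 and 7.45 in Rab5 siRNA livers, against 7.07, 6.78, 7.21 and 7.06 in control siRNA livers, and rose by 0.48 (adjusted p = 0.00834 over all probe sets). The groups of that probe set did not overlap either.

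The differences of the other 6 late endosome Rabs ran from 0.0019 to 0.23 and did not pass. Rab9, which returns receptors from late endosomes to the trans-Golgi network, averaged 8.73 ± 0.159 in Rab5 siRNA livers and 8.69 ± 0.124 in control siRNA livers (SD, n = 4 each). Rab29, a Rab of the trans-Golgi network, differed by 0.16 (95% interval -0.03 to 0.36) and Rab7b by 0.23 (-0.09 to 0.56).

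Among the 7 tested Rabs of regulated secretion and lysosome-related organelles, none was called by the probe set standing for its gene, with 1 at an unadjusted p under 0.05. Of all genes, 23.3% were called and 35% had an unadjusted p under 0.05 by limma. Rab32, which serves melanosomes and related organelles, averaged 7.05 ± 0.0711 in Rab5 siRNA livers and 6.71 ± 0.347 in control siRNA livers (SD, n = 4 each). Its difference of 0.33 (adjusted p = 0.116) reached 0.46 (adjusted p = 0.0252) without control replicate 3. Rab32 passed in no other of its 22 alternatives. Rab3a, known from synaptic vesicles, differed by -0.05 with a 95% interval from -0.24 to 0.14. The probe set standing for it, with a mean of 8.18, is of a design type with probes that can match other transcripts. The other kept probe set of Rab3a, of the specific type and with a mean of 5.68 over all arrays, differed by -0.25 (95% interval -0.48 to -0.01). It did not pass (adjusted p = 0.134 over all probe sets by limma).

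Rab3d, a Rab of exocrine secretory granules, gave different answers by probe set and is described after its values were seen. It has 3 kept probe sets with nearly the same mean level over all arrays. In control siRNA livers the one that changed averaged 5.42, against 5.85 for the set standing for the gene and 5.83 for the third. The probe set that changed had 6.49, 6.36, 6.41 and 6.19 in Rab5 siRNA livers, against 5.34, 5.23, 5.48 and 5.61 in control siRNA livers and 5.72 and 5.33 in PBS livers. These groups were well apart, with a difference of 0.95 (SE 0.121) and an adjusted p of 0.000101 among all probe sets in limma, or 1.93-fold. The probe set standing for the gene had 6.07, 5.84, 5.79 and 5.83 in Rab5 siRNA livers, against 5.92, 5.72, 5.89 and 5.89 in control siRNA livers and 5.88 and 5.42 in PBS livers. It differed by 0.03 (adjusted p = 0.895 over all probe sets), as did the third (0.03, adjusted p = 0.867). The mean of the 3 probe sets differed by 0.34 and passed (adjusted p = 0.0187), so the call of Rab3d depends on how its probe sets are combined. Whether they read different transcripts was not tested.

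Of the 3 tested Rabs of the cilium and of other roles, 1 rose, or 33.3%, against 23.3% of all genes called. Rab23, known as an inhibitor of Hedgehog signalling, had values of 5.54, 6.17, 6.07 and 5.83 in Rab5 siRNA livers, against 5.24, 5.44, 5.37 and 5.35 in control siRNA livers and 5.13 and 5.48 in PBS livers. All 4 Rab5 siRNA values were highest, replicate 1 by the least. The rise was 0.55 (SE 0.137, adjusted p = 0.0102 by limma), or 1.47-fold, and it passed without any single array. The signal is low, and the dimmer probe set differed by 0.21 (adjusted p = 0.117 over all probe sets). Rab28, a ciliary Rab, differed by 0.22 (95% interval -0.02 to 0.46) and Rab40c, which carries a SOCS box, by 0.08 (-0.15 to 0.31). The 4 symbols that name no GTPase did not pass. Rab5if differed by -0.20, Rab26os by 0.35, Rab3il1 by 0.18 and Rab10os by 0.08. Rab26os passed without control replicate 4 (0.50, adjusted p = 0.0199) and in no other of its 22 alternatives.

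The 11 genes under the filter were Rab26, Rab27a, Rab27b, Rab33a, Rab39, Rab39b, Rab3c, Rab40b, Rab42, Rab6b and Rab9b. Rab27a, for example, works in secretion of lysosome-related organelles in blood and pigment cells, and Rab3c and Rab6b are known from neurons. Their group means lay between 1.63 and 4.24 in siRNA livers, and the highest single value, 4.50, was that of a Rab27b probe set. At such signals a change is compressed. These genes were fitted only in the alternative without the filter, which entered the count of called Rab genes, and their single results are not given.

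Promoter sequences were looked up for the called genes because they moved in different directions. RefSeq promoters of the mouse assembly GRCm38.p6, from 250 bases before to 50 after a transcript start, were available for 5 of the 7, and 3 are shown from 5' to 3' on the strand of the gene. They stand for a large rise (Rab23), the rise with the most matches (Rab11a) and a fall (Rab43). Where a gene had several starts the most upstream one was used. Capitals mark every match, on either strand, to 5 sequences picked after the promoters had been seen: the E-box CACGTG, the GC box GGGCGG, the ETS site CCGGAAG, the cAMP response element TGACGTCA and the antioxidant response element core TGACNNNGC. Neighbouring matches run together.
Rab23, chr1:33719646-33719945, plus strand: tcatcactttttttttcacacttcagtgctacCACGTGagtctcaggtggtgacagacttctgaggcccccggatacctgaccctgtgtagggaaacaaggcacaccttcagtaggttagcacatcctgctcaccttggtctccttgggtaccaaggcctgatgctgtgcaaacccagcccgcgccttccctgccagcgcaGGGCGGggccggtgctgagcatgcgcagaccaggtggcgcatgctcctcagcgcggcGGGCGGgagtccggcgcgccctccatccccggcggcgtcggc
Rab11a, chr9:64737707-64738006, minus strand: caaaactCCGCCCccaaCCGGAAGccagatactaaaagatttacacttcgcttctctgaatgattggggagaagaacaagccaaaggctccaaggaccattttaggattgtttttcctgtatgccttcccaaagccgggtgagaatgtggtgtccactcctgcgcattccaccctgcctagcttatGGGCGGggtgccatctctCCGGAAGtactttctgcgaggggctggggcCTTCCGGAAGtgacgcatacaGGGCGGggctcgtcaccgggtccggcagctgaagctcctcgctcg
Rab43, chr6:87812115-87812414, minus strand: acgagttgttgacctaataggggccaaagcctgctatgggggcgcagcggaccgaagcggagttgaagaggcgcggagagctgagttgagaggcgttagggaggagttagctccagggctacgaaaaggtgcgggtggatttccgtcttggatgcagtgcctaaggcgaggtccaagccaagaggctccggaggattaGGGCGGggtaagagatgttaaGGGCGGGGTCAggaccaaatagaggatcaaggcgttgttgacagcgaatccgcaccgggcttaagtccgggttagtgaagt

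The Rab11a promoter held 4 ETS matches, 2 of them overlapping on opposite strands, and 3 GC boxes. An ETS match was found in 8.9% of the 32851 promoters of the table and for 5 of the 36 kept Rab genes with an entry. The Rab23 promoter held 1 E-box, found in 7.2% of all promoters, and 2 GC boxes. That of Rab43 held 2 GC boxes, 1 of which overlaps an antioxidant response element core. GC boxes stood in 35.7% of all promoters and in a promoter of 26 of the 36 Rab genes. In both gene counts a gene with several starts counts if any 1 of its promoters matches. The percentages are per promoter, so they cannot be compared with these gene counts. The Rab7 promoter held 1 GC box and none of the other sequences, and that of Rab6a held none of the 5. A match describes letters and not a bound site.

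Several Rab genes are read by more than 1 kept probe set, which gives a check inside each array. This was so for 20 of the 45 genes. Tested on their own, 9 of the 76 kept Rab probe sets were called, against 22% of all 21068 probe sets, of which 12.9% were higher and 9.08% lower. The 9 were the sets standing for Rab4a, Rab6a, Rab11a, Rab23, Rab30 and Rab43 and further sets of Rab6a, Rab7 and Rab3d. The brighter set of Rab7 missed the threshold among all probe sets (adjusted p = 0.0527). Rab6a was called by 2 of its 3 probe sets, with all 3 between 0.31 and 0.40. All other kept probe sets of Rab4a, Rab11a, Rab23 and Rab43 pointed the same way as the set standing for the gene without passing. Rab11b differed by 0.18 in the set standing for it and by -0.35 (adjusted p = 0.0557) in a dim set, the widest split besides Rab3d.

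**Figure D3:**
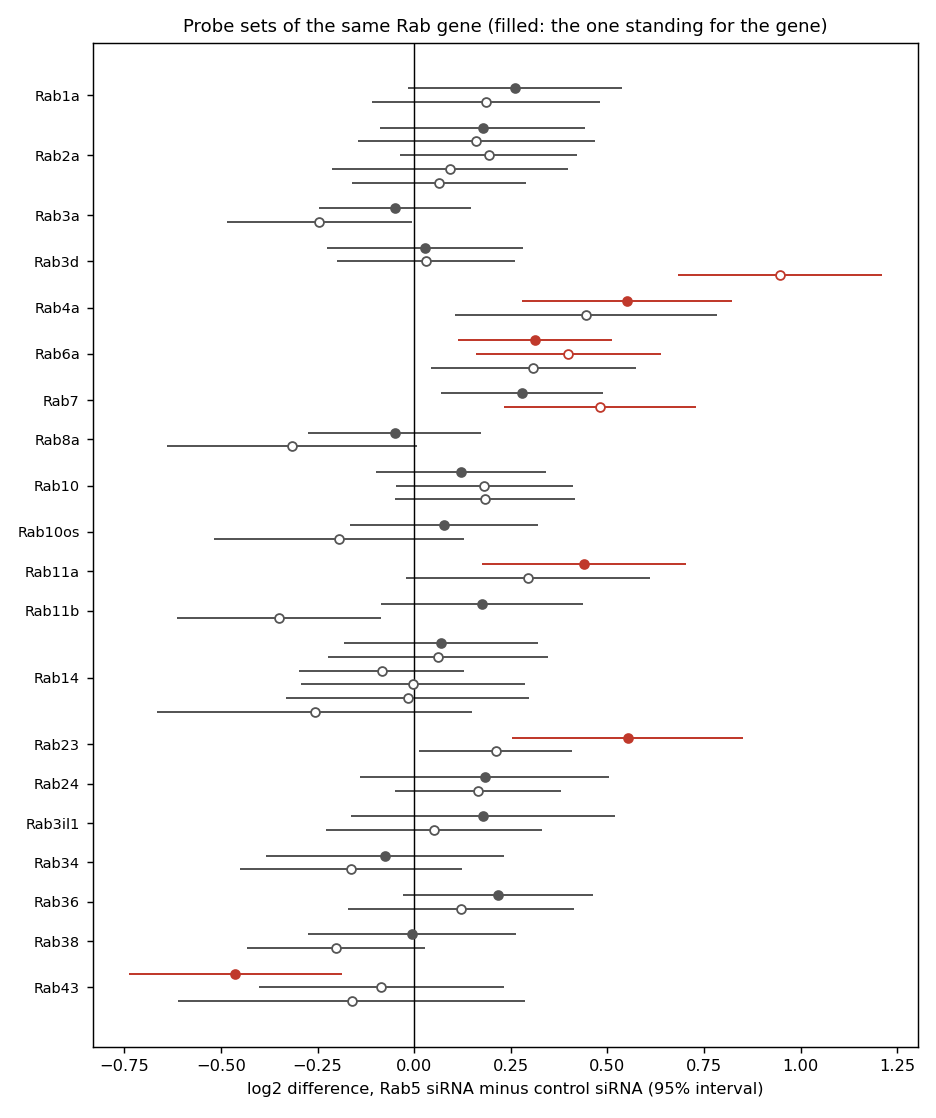
Log2 difference, Rab5 siRNA minus control siRNA, with its 95% interval, for each kept probe set of the 20 Rab genes that have several. Filled points are the probe sets standing for their genes and red marks an adjusted p under 0.05 over all 21068 probe sets. The 3 probe sets of Rab6a lie together, while 1 of the 3 of Rab3d lies at 0.95 and the others near 0.

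Close relatives among the Rabs were compared for unequal changes. Of 16 pairs listed, 9 had both genes kept, and for each the log2 difference between the 2 genes was taken in every array. The exact two-sided permutation test of 4 against 4 arrays cannot give a p under 0.0286. The change of Rab4a exceeded that of Rab4b by 0.38 (SE 0.129), and its exact permutation p was that smallest value (0.257 after adjustment over the 9 pairs). Rab11a changed by 0.44 and Rab11b by 0.18, a gap of 0.26 (exact permutation p = 0.229, 0.411 adjusted). Rab8a changed by -0.05 and Rab8b by 0.57, a gap of -0.63 (SE 0.280, exact permutation p = 0.114, 0.386 adjusted). With that smallest p, a single pair cannot pass after adjustment over 9, so the absence of calls says nothing on whether relatives changed alike.

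The control siRNA nanoparticles were set against PBS, which was injected too, as a background for the nanoparticles with their siRNA. None of the 45 Rab genes was called, and 0 had an unadjusted p under 0.05, against 0% and 4.31% of all genes tested by limma. Differences ran from -0.24 (Rab33b) to 0.20 (Rab3d). With 2 PBS arrays the intervals are wide, from -0.64 to 0.16 for Rab33b and from -0.50 to 0.55 for Rab8b, so changes of the size seen for Rab4a could not be detected for every gene.

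Rab5 siRNA against PBS uses the same Rab5 siRNA arrays and is no independent repeat. Of the 45 genes 2 rose and 1 fell, 3 in all, against 9.53% and 7.59% of all genes, together 17.1%. At an unadjusted p under 0.05 there were 8, against 29% of all genes. Rab30 fell by 1.27 on the log2 scale (SE 0.202, adjusted p = 0.000713 by limma). Rab23 rose by 0.60 (adjusted p = 0.0249) and Rab6a by 0.40 (adjusted p = 0.0214). The differences of Rab4a (0.44, adjusted p = 0.0649), Rab11a (0.32, adjusted p = 0.167), Rab7 (0.18, adjusted p = 0.323) and Rab43 (-0.38, adjusted p = 0.111) did not pass. The count was 1 without PBS replicate 1 or Rab5 siRNA replicate 2, and 5 without Rab5 siRNA replicate 1.

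The rest of the Rab cycle is given by 4 lists. Of 12 measured genes of prenylation and Rab recycling by GDI, 1 rose and 0 fell, with a median difference of 0.07. The gene that rose was Fntb (0.34, SE 0.103, adjusted p = 0.0308), a subunit of farnesyltransferase, which modifies mainly GTPases other than Rabs. That call was lost without any 1 of control replicates 2, 3 and 4 (adjusted p = 0.0821, 0.0639 and 0.0583) and Rab5 siRNA replicates 2 and 3 (0.109 and 0.0729). The Rab-specific genes did not pass: Rabggta and Rabggtb, the subunits that prenylate Rabs, differed by -0.09 and 0.09, the escort protein Chm by 0.16 and Gdi2 by -0.01.

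Of 38 measured exchange factors for other Rabs, 2 rose and 4 fell, with a median of 0.04. Madd, an exchange factor for Rab3 and Rab27, had 5.84, 5.79, 5.81 and 6.03 in Rab5 siRNA livers, against 6.44 to 6.64 in control siRNA livers. The groups were clearly apart, with a difference of -0.71 (SE 0.107, adjusted p = 0.00032 by limma). Mon1a, part of the exchange factor for Rab7, fell by 0.47 on the log2 scale, whereas Rab7 itself rose by 0.28 at the edge of the threshold. Mon1b and Ccz1, listed with Mon1a, differed by 0.18 and 0.10 and did not pass (adjusted p = 0.322 and 0.553 by limma). Hps4, part of the exchange factor for Rab32 and Rab38, fell by 0.43 on the log2 scale, and Ric1, part of that for Rab6, by 0.40. The call of Hps4 was lost without Rab5 siRNA replicate 2 (adjusted p = 0.0502).

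Of 37 measured GAPs 3 rose and 3 fell, with a median of 0.0025, and without control replicate 3 or Rab5 siRNA replicate 3 the count of 6 was 3. The dim Tbc1d19 had 4.61, 5.51, 5.10 and 5.55 in Rab5 siRNA livers, against 4.27, 3.87, 4.32 and 4.49 in control siRNA livers, a rise of 0.96 (SE 0.193, adjusted p = 0.00291 by limma). Its PBS values of 4.69 and 4.93 lay within the Rab5 siRNA range, and against PBS the difference was 0.38 (adjusted p = 0.317). Tbc1d16, a GAP for Rab4a, fell by 0.54 on the log2 scale (SE 0.118, adjusted p = 0.00507), and did not pass with the mean of its probe sets (-0.31, adjusted p = 0.0783). Tbc1d2b rose by 0.39 (adjusted p = 0.021), with adjusted p between 0.0547 and 0.064 without control replicate 3, Rab5 siRNA replicate 2 or Rab5 siRNA replicate 3. Rabgap1l differed by -0.57 (adjusted p = 0.0086) in the probe set standing for it, but by 1.11 (adjusted p = 0.00786) in its most variable one, so it has no settled direction.

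Of 42 measured genes in the list of effectors 6 rose and 0 fell, with a median of 0.01. Among the 6, Ankfy1 (0.39, adjusted p = 0.00699) is known as an effector of Rab5 itself. Kif20a, a kinesin that binds Rab6 and works in cell division, had 5.41, 5.99, 5.89 and 6.33 in Rab5 siRNA livers, against 4.08, 4.42, 3.94 and 3.63 in control siRNA livers. It rose by 1.88 (SE 0.188, adjusted p = 1.43e-05 by limma). Of its control siRNA and PBS values only that of control replicate 2 exceeded the filter value of 4.33, so the gene passed the filter through the Rab5 siRNA arrays, and the size of the rise is uncertain. Myo5b, the motor that moves Rab11 vesicles, had 6.86, 7.21, 7.13 and 7.19 in Rab5 siRNA livers, against 6.15, 6.06, 5.90 and 6.30 in control siRNA livers, a rise of 1.00 (SE 0.114, adjusted p = 4.02e-05). For both genes the siRNA groups did not overlap. Rph3al, an effector of Rab3 and Rab27, rose by 0.59 and Plin3, which binds Rab9, by 0.56. Without the arrays numbered 2 of every group, 5 of the 19 called genes of the 4 lists passed, namely Madd, Kif20a, Myo5b, Rph3al and Plin3, and with array weights the count of effectors was 10. In all 4 lists the share called, from 8.33% to 16.2%, lay under the 23.3% of all genes.

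**Figure D4:**
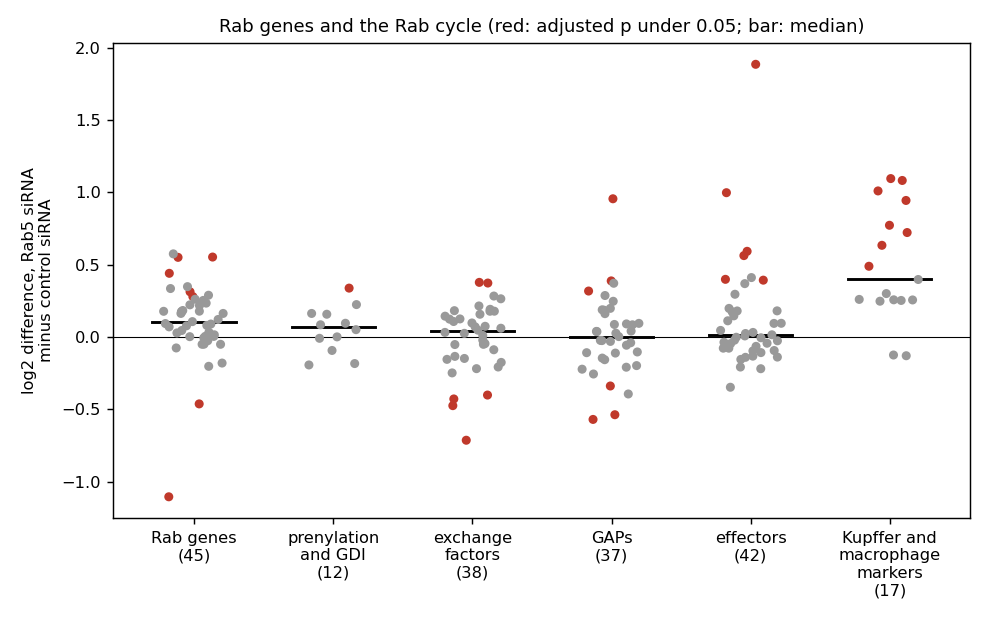
Log2 difference of each gene, Rab5 siRNA minus control siRNA, for the 45 Rab genes, the 4 lists of the Rab cycle and the 17 Kupffer cell and macrophage markers, with the number of genes in parentheses. Bars are medians and red points had an adjusted p under 0.05. The medians of the Rab genes (0.11) and of the 4 lists lie near 0, and that of the macrophage markers at 0.40.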

How the data were processed

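Liver RNA of 10 samples was hybridised to Affymetrix whole-genome mouse arrays. The deposited table holds log2 values, made by the authors with Affymetrix Expression Console, RMA and Partek 6.6, per the submitters' processing notes, which do not give the order. RMA equalises the distributions of the arrays, so a general shift would not be seen. Dim signals are compressed, no detection calls were used, and precision is limited by the number of arrays.

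Each gene was represented by its brightest kept probe set. Group means were estimated from all 10 arrays in 1 model with limma 3.58.1 in R 4.3.3, and p-values were adjusted by Benjamini-Hochberg over all 12855 genes. The fit was tested on simulated data. Symbols came from the platform annotation, matched exactly. Kept Rab genes were ordered by role. Called ones were named, with the 2 of highest mean per role among the others and relatives of called ones, and up to 4 called genes per list. Members, roles and lists were chosen with earlier results of these data known.

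The arrays of both siRNA groups share replicate numbers in the titles. Deviations from the group means of same-numbered arrays correlated at 0.39, 0.15, 0.19 and 0.31 across genes, so the numbers were treated as pairs in an alternative fit. Some differently numbered arrays correlated as much, Rab5 siRNA replicate 2 with control replicate 4 at 0.20 and Rab5 siRNA replicate 4 with control replicate 2 at 0.18. Alternatives changed the filter, probe set choice, normalization, variance model and arrays.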

Additional observations from a re-analysis of the deposited data

Results flagged for a closer look

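Among 90 groups of 4 values examined, 2 held a value that stood far from the rest; chance flags about 1 in 20 groups. Rab10os was 5.24 in Rab5 siRNA replicate 1, below 5.43 to 5.45 in the other 3 Rab5 siRNA livers. Rab3d, by the probe set standing for it, was 5.72 in control replicate 2, below 5.89 to 5.92 in the other 3 control siRNA livers.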

How the results depend on the processing

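For Rab5 siRNA against control siRNA, 7 Rab genes were called, and 12 of 13 alternatives other than leaving out 1 array gave a count within 1.5 times of that. Without the arrays numbered 2 of every group 1 Rab gene was called, and 5 genes of the 4 Rab cycle lists in place of 19. These arrays differ in RNA quality values, and fewer arrays enter that fit. Leaving out 1 array gave 4 to 8 Rab genes and 14 to 22 genes of the lists. With the replicate block 8 Rab genes and 24 list genes were called, with Rab8b the Rab gene added. For Rab5 siRNA against PBS the count of 3 became 5 with the most variable probe set, 5 with every probe set on its own, 8 with array weights, 6 when both siRNA groups lacked their arrays numbered 1, and 1 without those numbered 2. It was 2 with the replicate block and 1 to 5 without 1 array, and the cause was not tested. With 1 PBS array left out, the lone one is assumed to vary like the other groups. Control siRNA against PBS gave 0 Rab genes in all 23 alternatives. The comparison of relatives cannot pass for a single pair and says nothing on stability. Rabgap1l reversed to 0.42 with the mean of its probe sets and to 1.11 with the most variable one. Rab43 did not pass with the mean of its probe sets (-0.24, adjusted p = 0.18) or the most variable one (-0.16, adjusted p = 0.618). Rab7 passed in 7 of 22 alternatives. Low signal over background limits the 11 Rab genes under the filter.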
